A study of Mus musculus with 18 samples.

Results

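Mitochondrial ribosomal protein genes were taken as the rows of both count tables whose symbol was Mrpl or Mrps followed by a number and whose counts summed to more than 100 over a table. Of 23052 gene symbols in each table, 76 matched the pattern and 75 passed, the same 75 in both tables. Mrpl53 was the one that did not pass: it was listed at 0 in every library, and in the GENCODE annotation 695 of its 790 exonic bases lie in a readthrough gene on the same strand, Gm42688. The lowest members above the limit were Mrps34, with 917 counts over the tolerance table, and Mrpl23, with 518 counts over the stimulation table. All 75 also passed the filter on low counts used before testing.

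The mitochondrial ribosome translates the few messenger RNAs made from mitochondrial DNA, which encode core subunits of the respiratory chain and of ATP synthase. Its RNAs come from the mitochondrial genome, whereas all its proteins are encoded in the nucleus, made in the cytosol and imported. Some have counterparts in the bacterial ribosome and others were added during the evolution of mitochondria. Macrophages change their use of the respiratory chain with activation: interleukin-4 is known to favour oxidative metabolism, and the bacterial cell wall component lipopolysaccharide (LPS) favours glycolysis.

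The libraries came from bone marrow-derived macrophages of wild type C57BL6/J mice, grown for 7 days in medium conditioned by L929 cells, a fibroblast line that secretes the macrophage growth factor. In the tolerance table, 4 libraries each came from endotoxin-tolerant macrophages kept without glutamine, from such cells given α-ketoglutarate (AKG) without glutamine, and from such cells with glutamine. Tolerance is the damped response of cells that have met endotoxin before, and AKG is the tricarboxylic acid cycle intermediate that glutamine feeds. In the stimulation table, 2 libraries each came from cells after 6 h with IL-4, after 6 h with LPS and from control cells; doses and the tolerance schedule are not given in the labels. Total RNA was sequenced, with totals of 28302158 to 37834680 counts a library in the tolerance table and 34227368 to 39760356 in the stimulation table. The labels do not say that replicates came from separate mice or cultures, so p-values measure the spread between these libraries, which may be technical. In the tolerance table libraries 1 and 2 of each group stood apart from libraries 3 and 4, and the labels name no cause. The 8 macrophage markers checked (such as Adgre1 and Csf1r) summed to between 26686 and 46817 CPM in the libraries, and 6 lymphocyte markers to at most 0.545 CPM. Levels are CPM (counts scaled to a common library size) after TMM scaling, which sets libraries on a common footing by the trimmed mean of their gene ratios.

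Of the 75 members, 48 belong to the large subunit and 26 to the small one, with 29 and 16 of them having bacterial homologs. Mrps30 and Mrps18a are counted with the large subunit, where their proteins sit despite the symbol. Mrps36 is in neither class, because its protein is now known as a subunit of the 2-oxoglutarate dehydrogenase complex, the enzyme that consumes AKG. Members lie on 17 chromosomes, 10 of them on chromosome 11. The nearest other protein-coding gene was within 1 kb for 44 members. Exons of 6 members overlap exons of another gene on the same strand, and those of 26 overlap exons on the opposite strand. The libraries are stranded, but no source used here gives the strand setting of the counting, so values of overlapping members are uncertain.

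Promoter windows, from 250 bases before to 50 after the annotated start, were read from RefSeq (GRCm38.p6), where 66 members had 72 windows. Known regulators of this gene group include nuclear respiratory factors and YY1, so short cores of their motifs were searched for on both strands: CCGGAAG (ETS family, which includes NRF-2/GABP), GCATGCG (NRF1) and ATGGCGG (YY1). The ETS core was present in 31.9% of member windows and 8.86% of all 32851 windows, the YY1 core in 16.7% and 4.05%, and the NRF1 core in 9.72% and 3.58%. At least one of them was in 47.2% of member windows and 14.8% of all windows. All windows together cover 27025 gene symbols and are not limited to genes tested here. A comparison with the windows of tested genes alone was not made. Member windows were also richer in G and C, with a median of 58.5% against 52.7% in all windows, and these motifs are themselves rich in G and C. The windows below belong to the 4 members with a window that had the smallest p in the comparison with most calls, IL-4 against LPS, and to Mrpl30, which was added after its values were seen because the window spans the start of an oppositely oriented neighbour that moved with it. Capitals mark matches to the searched cores.
Mrpl52 (chr14:54426659-54426958, plus strand): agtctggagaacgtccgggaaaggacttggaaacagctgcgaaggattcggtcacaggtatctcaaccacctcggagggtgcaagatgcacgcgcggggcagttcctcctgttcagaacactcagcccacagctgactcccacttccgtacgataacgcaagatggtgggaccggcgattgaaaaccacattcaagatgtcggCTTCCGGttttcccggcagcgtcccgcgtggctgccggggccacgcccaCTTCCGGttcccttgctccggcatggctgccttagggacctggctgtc
Mrpl45 (chr11:97315466-97315765, plus strand): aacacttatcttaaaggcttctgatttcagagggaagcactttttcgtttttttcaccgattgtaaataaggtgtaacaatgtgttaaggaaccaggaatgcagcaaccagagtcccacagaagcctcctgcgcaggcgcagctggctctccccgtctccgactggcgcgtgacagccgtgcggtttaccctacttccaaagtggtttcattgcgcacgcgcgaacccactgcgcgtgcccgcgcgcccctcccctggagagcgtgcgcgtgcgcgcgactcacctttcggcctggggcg
Mrps6 (chr16:92058086-92058385, plus strand): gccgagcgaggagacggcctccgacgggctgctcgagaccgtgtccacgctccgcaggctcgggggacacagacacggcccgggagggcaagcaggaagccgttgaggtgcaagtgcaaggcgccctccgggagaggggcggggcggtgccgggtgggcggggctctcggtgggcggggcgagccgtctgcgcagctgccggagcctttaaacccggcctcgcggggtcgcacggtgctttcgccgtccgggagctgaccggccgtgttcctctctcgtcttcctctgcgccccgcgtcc
Mrpl41 (chr2:24975049-24975348, minus strand): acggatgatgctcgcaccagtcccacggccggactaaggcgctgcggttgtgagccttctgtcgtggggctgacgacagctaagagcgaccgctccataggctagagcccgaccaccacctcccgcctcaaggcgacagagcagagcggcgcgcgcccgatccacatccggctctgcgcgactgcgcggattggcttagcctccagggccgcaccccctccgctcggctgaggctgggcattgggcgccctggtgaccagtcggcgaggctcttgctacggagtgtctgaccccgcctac
Mrpl30 (chr1:37890227-37890526, plus strand): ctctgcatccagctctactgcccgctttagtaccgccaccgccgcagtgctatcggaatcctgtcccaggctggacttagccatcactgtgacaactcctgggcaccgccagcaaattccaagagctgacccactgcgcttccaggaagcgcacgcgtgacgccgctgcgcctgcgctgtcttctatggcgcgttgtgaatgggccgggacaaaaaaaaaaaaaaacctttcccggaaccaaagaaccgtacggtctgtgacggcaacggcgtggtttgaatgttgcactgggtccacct
The Mrpl52 window holds the ETS core 2 times, both on the strand opposite to the gene. None of the 3 exact cores was found in the other windows shown. Other forms of these motifs were not searched for, here or in the shares above. Such a match is a string of letters, not a measured binding site.

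Per kilobase of transcript, members were moderately abundant. In the tolerance table the median member had 15.9 CPM per kb, against 10.9 CPM per kb for the median of all genes with a length, and 53 of 75 members lay above that median. Mrpl20, a large subunit protein with a bacterial homolog, was the highest at 66.3 CPM per kb, followed by Mrpl52 at 53.6, Mrps21 at 50.5, Mrps23 at 49.5 and Mrps18a at 46.3 CPM per kb. The lowest were Mrps34 at 2.47, Mrpl47 at 2.98, Mrps25 at 3.01, Mrps26 at 3.20 and Mrpl57 at 4.26 CPM per kb. In the stimulation table Mrpl20 (84.7), Mrpl52 (83.1), Mrps23 (51.7), Mrpl54 (48.1) and Mrps18a (43.6 CPM per kb) led. At the other end of that table stood Mrps25 at 2.84, Mrpl47 at 2.93, Mrps34 at 3.17, Mrpl23 at 3.24 and Mrpl57 at 4.02 CPM per kb. The order rests on the length used, here the median over protein-coding transcripts. With the union of exons, 1 of the top 5 stayed there in the tolerance table and 3 of 5 in the stimulation table. Of the 5 lowest, 1 stayed among the lowest 5 in the tolerance table and 2 in the stimulation table. Exons of the low member Mrps34 overlap Nme3 on its own strand and Mapk8ip3 on the other strand.

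Taken as a sum, the 75 genes took up 0.132 to 0.179% of the counts of a library. The summed level was 1544 ± 74.1 CPM without glutamine, 1516 ± 34.4 CPM with AKG and 1517 ± 54.5 CPM with glutamine (SD, n = 4 each), so the 3 tolerant groups overlapped. In the stimulation table the sum was 1556 and 1598 CPM with IL-4, 1737 and 1612 CPM with LPS, and 1506 and 1414 CPM in control cells, without overlap between stimulated and control libraries. Without Mrpl52 and Mrpl45 it was 1506 and 1547 CPM with IL-4, 1560 and 1451 CPM with LPS, and 1450 and 1362 CPM in control cells, so that 1 LPS library lay at the level of 1 control library. As a share of raw counts the LPS libraries were instead the lowest, at 0.137 and 0.132%, against 0.175 and 0.179% with IL-4 and 0.168 and 0.154% in control cells. The TMM factors of the LPS libraries (0.791 and 0.822) were below those of IL-4 (1.13 and 1.12) and control libraries (1.12 and 1.09), so any direction of the whole group with LPS depends on the scaling.

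**Figure D1:**
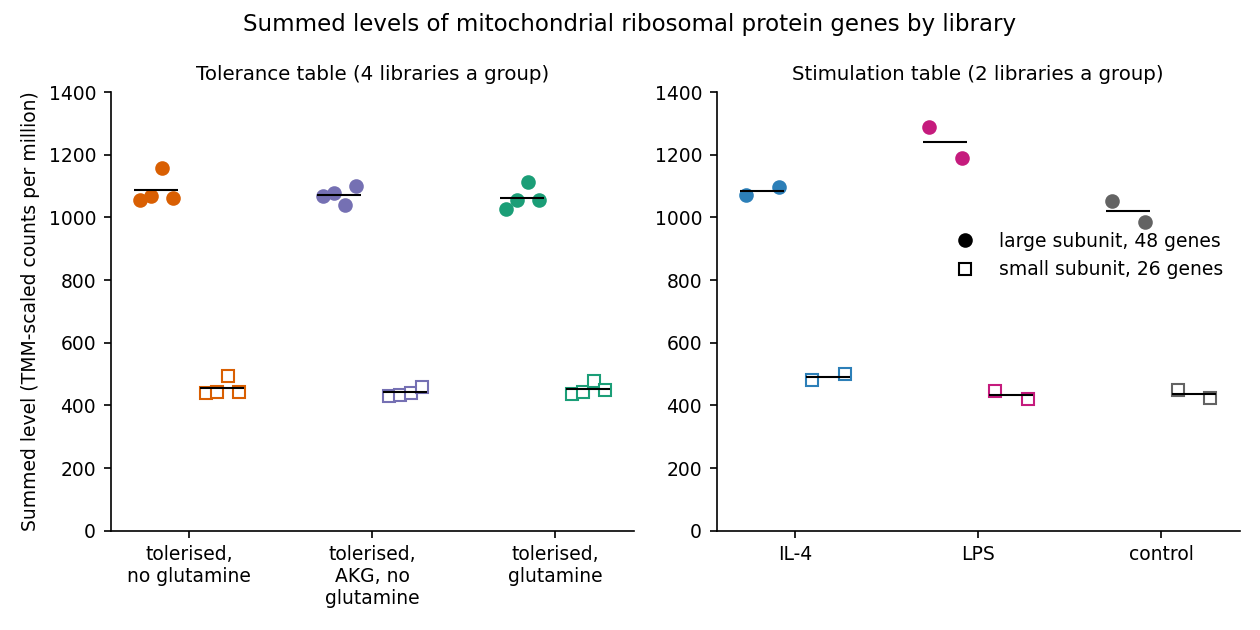
Summed level (CPM after TMM scaling, axis from 0) of the 48 large-subunit genes (filled circles) and 26 small-subunit genes (open squares) in each library, with lines at the group means. The tolerant groups overlap, and the LPS libraries have the highest large-subunit sums, 1289 and 1190 CPM.

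Individual members varied little in the tolerance table and more under stimulation. The median member had a within-group SD of 0.124 on the log2 scale in the tolerance table, against 0.205 for all genes tested, and 0.089 against 0.134 in the stimulation table. The range of its group means was 0.09 (log2) in the tolerance table and 0.33 in the stimulation table, against 0.20 and 0.66 for all genes. Over the 6 comparisons, 35 members passed an adjusted p of 0.05 in at least one and 40 in none. The same count over all genes was not made. In no single comparison was the share of members called above that of all genes, as given below. All adjusted p-values below are from edgeR's quasi-likelihood test with Benjamini-Hochberg adjustment over all genes tested.

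**Figure D2:**
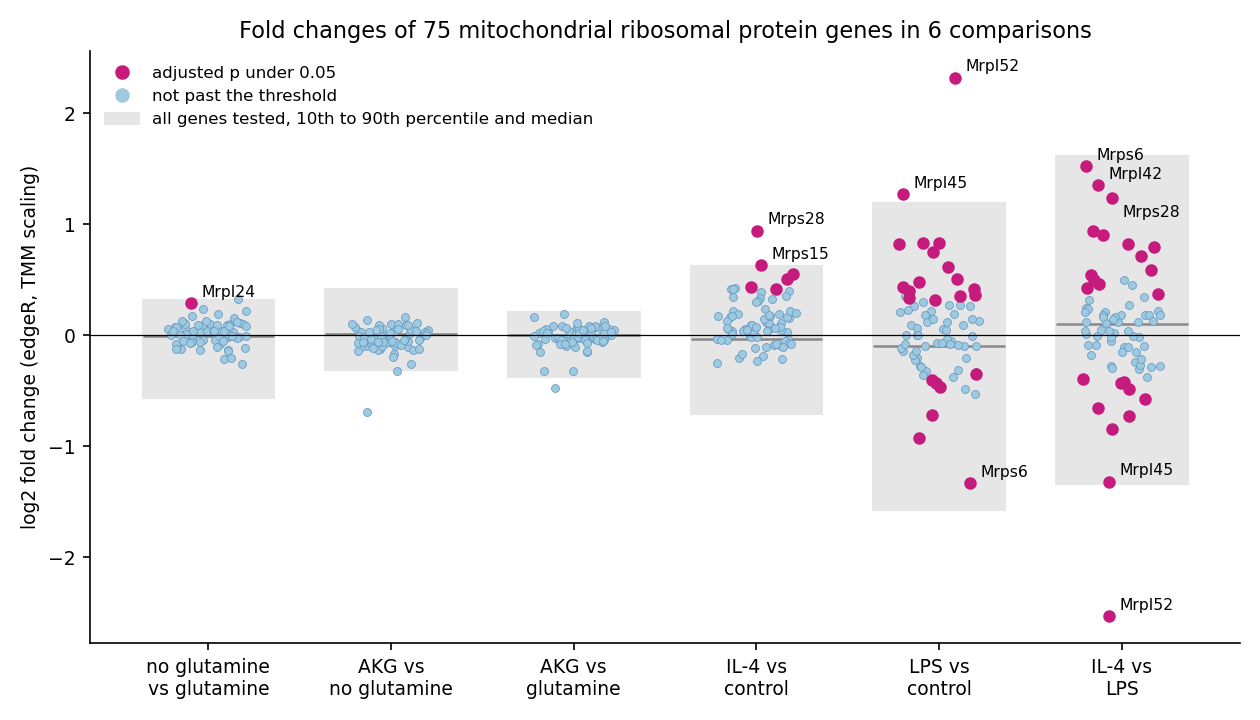
Fitted log2 fold changes of the 75 members (points, spread sideways for visibility) in the 6 comparisons, with the 10th to 90th percentile of all genes tested as a grey box and their median as a line. In the tolerance comparisons all but 1 member miss the threshold, whereas with LPS Mrpl52 stands at 2.32 and Mrps6 at -1.34.

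Between tolerant macrophages without and with glutamine almost no member was called. Of 75 members 1 rose and none fell without glutamine, 1.33% against 4.7% called among all genes (2.3% higher and 2.4% lower). The median log2 fold change was 0.02 over members and -0.01 over all genes, and members ranged from -0.26 to 0.33. The 1 member was Mrpl24, a large subunit protein with a bacterial homolog (chr3:87919506-87923672, plus strand). Mrpl24 had 36.7, 37.9, 37.2 and 36.6 CPM without glutamine, 35.9, 37.0, 34.0 and 29.4 CPM with AKG, and 31.1, 31.2, 30.3 and 28.9 CPM with glutamine. The 4 libraries without glutamine lay above the 4 with glutamine, and the AKG libraries spanned both. The log2 fold change was 0.29 (SE 0.07, adjusted p = 0.0448). This call was lost when any 1 of the 8 libraries was left out (adjusted p = 0.0714 to 0.125). Of its 2255 exonic bases, 594 overlap Rrnad1 on the opposite strand, whose log2 fold change was 0.09 (adjusted p = 0.676).

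With the replicate number as a block, 3 members rose without glutamine, 4% against 21.7% of all genes called and 8.68% called higher. The added ones were Mrpl57, with a log2 fold change of 0.24 and a blocked adjusted p of 0.0443, and Mrps18b, with 0.33 and 0.0299. Mrpl57 had 12.7, 14.7, 14.1 and 13.3 CPM without glutamine, against 9.81, 11.6, 13.1 and 11.99 CPM with glutamine. Mrps18b, a small subunit protein, had 7.29, 7.34, 9.93 and 8.99 CPM without glutamine, against 5.26, 5.15, 8.49 and 7.87 CPM with glutamine. In both genes the groups overlap as a whole, and each library without glutamine lay above the library of the same number with glutamine. Groups did not overlap for 3 members, 4% against 12.4% of all genes tested. Marker levels differed between the same groups: 8 stromal fibroblast markers summed to 50.0 to 213 CPM without glutamine, 112 to 413 CPM with AKG and 423 to 2211 CPM with glutamine, and all 8 were above 0. Of them, 6 fell without glutamine. The 10 proliferation markers summed to 29.2 to 58.3 CPM without glutamine, 43.9 to 61.1 CPM with AKG and 90.4 to 178 CPM with glutamine, and 7 of 10 fell without glutamine. The part of both lists in the values above was not tested. In RNA from a culture as a whole, fewer cells of a type and less RNA per cell cannot be told apart.

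Adding AKG to tolerant cells without glutamine gave no call among the members. The count was 0 of 75 by edgeR, against 1.49% of all genes tested. At an unadjusted p under 0.05 there was 1 of 75 members and 1619 of 12492 genes. No member was called by DESeq2 or limma-voom, against 5.46 and 1.67% of all genes. The median log2 fold change was -0.04 over members and 0.01 over all genes. The smallest p belonged to Mrpl57, a large subunit protein without a bacterial homolog, at -0.26 (log2; SE 0.09, adjusted p = 0.254). It had 10.9, 11.3, 11.6 and 12.2 CPM with AKG, all below the 12.7 to 14.7 CPM without glutamine. Next came Mrps17 with -0.13 (adjusted p = 0.437) and Mrps34 with -0.70 (adjusted p = 0.463). Mrps34 was a low gene, with 1.30, 1.96, 2.27 and 1.24 CPM with AKG, against 2.38, 3.59, 2.58 and 2.43 CPM without glutamine. With the replicate block 2 members fell with AKG, 2.67% against 15.3% of all genes called and 7.03% called lower: Mrpl57 (blocked adjusted p = 0.0459) and Mrps18b (log2 fold change -0.32, blocked adjusted p = 0.0464). Groups did not overlap for 3 members, 4% against 9.1% of all genes. This comparison shares its no-glutamine libraries with the one above, so the opposite signs of Mrpl57 and Mrps18b in the pair are not separate evidence.

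Between AKG without glutamine and glutamine itself, no member was called by edgeR, and none of all genes tested (0% called). At an unadjusted p under 0.05 edgeR gave 3 of 75 members and 916 of 12492 genes. DESeq2 and limma-voom called no member, against 1.86 and 0% of all genes. With the replicate block no member was called, against 7.01% of all genes. The lowest p was that of Mrps6, a small subunit protein with a bacterial homolog, at -0.32 (log2; SE 0.10, adjusted p = 0.322). It had 11.6, 9.90, 10.2 and 11.7 CPM with AKG, against 15.2, 14.6, 12.6 and 11.9 CPM with glutamine. Mrps35 (0.19, adjusted p = 0.554) and Mrpl24 (0.16, adjusted p = 0.644) followed. Groups did not overlap for 2 members, 2.67% against 5.57% of all genes.

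The members with a known link to the treatments or to mitochondrial transcription did not pass the test in the tolerance table. Mrps36, which ties 2-oxoglutarate dehydrogenase together, averaged 3.08 ± 0.546 CPM without glutamine, 3.01 ± 0.539 CPM with AKG and 3.31 ± 0.653 CPM with glutamine (SD, n = 4 each). Mrpl12, which is also known to bind the mitochondrial RNA polymerase, averaged 18.1 ± 1.19 CPM without glutamine, 17.4 ± 1.18 CPM with AKG and 17.8 ± 1.999 CPM with glutamine (SD, n = 4 each). Of the 3 Mrps18 genes, which are related to bacterial protein S18 and of which Mrps18c alone is counted here with the bacterial homologs, Mrps18a had a log2 fold change of 0.17 without glutamine against glutamine (adjusted p = 0.210) and Mrps18c one of -0.07 (adjusted p = 0.764). With AKG against glutamine Mrps36 had a log2 fold change of -0.14, Mrpl12 of -0.03, Mrps18a of 0.11, Mrps18b of 0.00 and Mrps18c of -0.02, and none passed the test. With AKG against no glutamine Mrps36 had one of -0.04, Mrpl12 of -0.06, Mrps18a of -0.06 and Mrps18c of 0.04.

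The split between libraries 1 and 2 and libraries 3 and 4 was wider for many members than the differences between media. In a fit with that split as a factor, 36 members were called, 26 higher and 10 lower in libraries 3 and 4, or 48% against 56% of all genes (29.6% higher and 26.4% lower). Mrps28 was higher there by 0.66 (log2), Mrpl41 by 0.57 and Mrps18b by 0.48, and Mrpl28 was lower by 0.34. Each medium has 2 libraries on either side of the split. In libraries 1 and 2 alone the calls were 5 for no glutamine against glutamine, 2 for AKG against no glutamine and 2 for AKG against glutamine, and in libraries 3 and 4 alone there was none in the first of these comparisons. Of all genes, 28.5%, 23.5% and 11.6% were called in libraries 1 and 2 alone, in that order, and 13.2% in libraries 3 and 4 alone in the first comparison.

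Of the genes that serve the mitochondrial ribosome, 1 of 22 assembly and rRNA modification genes rose without glutamine. The share was 4.55%, against 4.7% of all genes called. The gene was Tfb1m, the methyltransferase of small-subunit rRNA. Tfb1m averaged 4.70 CPM without glutamine and 3.16 CPM with glutamine (log2 fold change 0.57, SE 0.14, adjusted p = 0.0434). None of 14 translation factors, 7 mitochondrial transcription genes and 8 tested regulators of mitochondrial biogenesis was called in that comparison, nor any gene of these lists in the other tolerance comparisons. With the replicate block 3 translation factors and 1 biogenesis regulator rose without glutamine, and 1 assembly gene rose and 1 fell. There 21.7% of all genes were called and 8.68% called higher. With AKG against no glutamine 3 translation factors and 1 biogenesis regulator fell with the block, and 1 assembly gene rose. There 15.3% of all genes were called and 7.03% called lower. None of 77 cytosolic ribosomal protein genes was called without glutamine either (3 rose with the block), with a median log2 fold change of 0.08 without glutamine.

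After 6 h of IL-4, 6 members rose and none fell against control cells, 8% of members against 20.1% of all genes called and 9.66% called higher. The median log2 fold change was 0.07 over members and -0.04 over all genes, and 3 of the 6 belong to each subunit. The 6 rose under the other scalings too in direction, with 4 still called under RLE size factors and 6 with library totals. The highest fold was that of Mrps28, a small subunit protein with a bacterial homolog (chr3:8802146-8923918, minus strand). Mrps28 had 12.2 and 11.9 CPM with IL-4 and 5.32 and 4.92 CPM with LPS, against 6.41 and 6.14 CPM in control cells. The IL-4 libraries stood apart from the other 4, at 1.92 times the control mean (log2 fold change 0.94, SE 0.12, adjusted p = 0.00357). Its neighbour Tpd52, 1675 bases away on the same strand, went the other way, with a log2 fold change of -0.73 (adjusted p = 0.00465).

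Mrps15, a small subunit protein with a bacterial homolog, had 36.9 and 40.6 CPM with IL-4, against 26.2 and 23.9 CPM in control cells (log2 fold change 0.63, SE 0.11, adjusted p = 0.0105). Mrps25, a small subunit protein of mitochondria, had 22.7 and 23.9 CPM with IL-4, against 14.8 and 17.1 CPM in control cells (0.55, SE 0.11, adjusted p = 0.0223). In both genes the groups were apart. Csf3r, 2485 bases from Mrps15 on the same strand, was higher with IL-4 as well, with a log2 fold change of 1.55 (adjusted p = 0.000527), and its part in the Mrps15 counts was not tested. Of the 6576 exonic bases of Mrps25, 69.8% overlap Nr2c2 on the opposite strand, whose log2 fold change was -0.21 (adjusted p = 0.4661). In the large subunit Mrpl15, which has a bacterial homolog, had 35.0 and 34.2 CPM with IL-4, against 25.9 and 22.9 CPM in control cells (0.50, adjusted p = 0.0198). Mrpl12 had 22.9 and 22.8 CPM with IL-4, against 17.3 and 16.6 CPM in control cells (0.43, adjusted p = 0.0406), and Mrpl3 had 42.3 and 44.2 CPM with IL-4, against 33.9 and 30.9 CPM in control cells (0.42, adjusted p = 0.0388). For all 6 genes both IL-4 libraries lay above both control libraries. Groups did not overlap for 39 members, 52% against 58.3% of all genes. With 2 libraries a group the calls turned on single libraries, and members and all genes both lost calls without an IL-4 library. With a library left out, the log2 fold change ran from 0.91 to 1.05 for Mrps28 and from 0.56 to 0.78 for Mrps15. For Mrps25 it ran from 0.51 to 0.65, for Mrpl15 from 0.42 to 0.68, for Mrpl12 from 0.40 to 0.55 and for Mrpl3 from 0.35 to 0.57. Mrps18b (0.40, adjusted p = 0.0603), Mrps36 (0.30, adjusted p = 0.405), Mrps18c (0.17, adjusted p = 0.383) and Mrps18a (-0.08, adjusted p = 0.738) were not called.

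**Figure D3:**
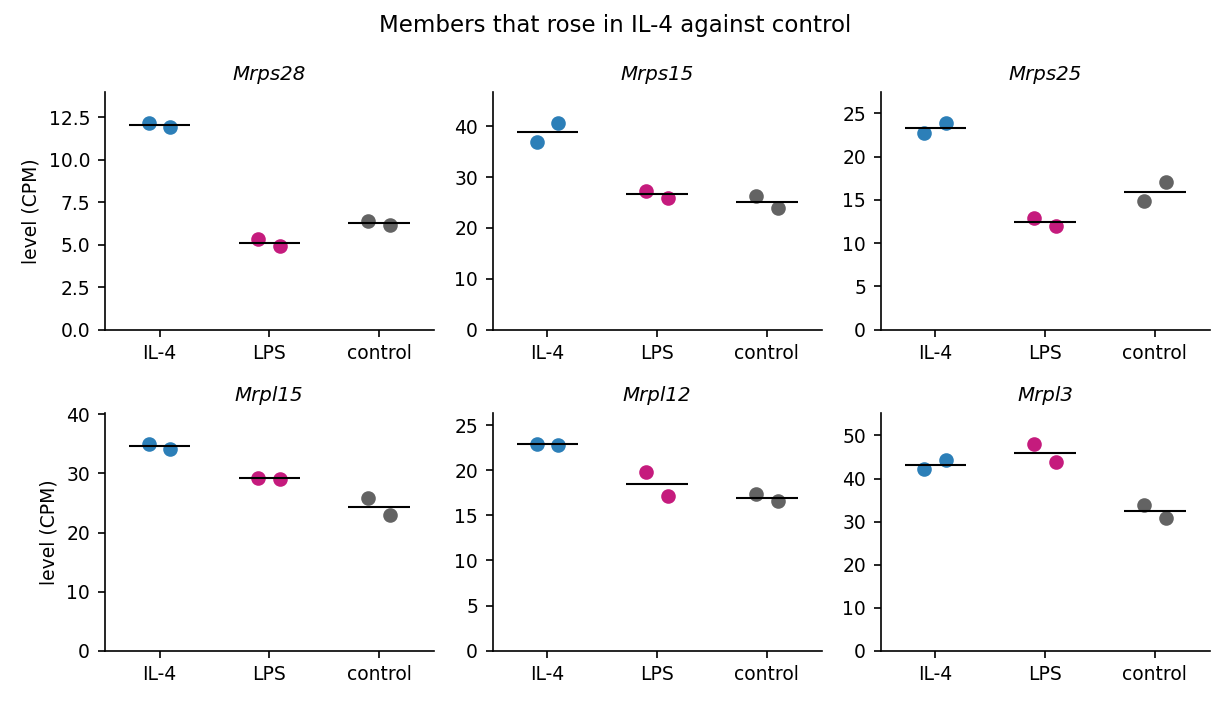
Level (CPM, each axis from 0) of the 6 members that rose with IL-4, in the 2 libraries of each stimulation group, with lines at the means. In every panel both IL-4 libraries lie above both control libraries.

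Among regulators of mitochondrial biogenesis, 3 of 8 tested rose with IL-4, where 9.66% of all genes were called higher. Ppargc1b, a coactivator of mitochondrial biogenesis, averaged 18.5 CPM with IL-4 and 1.41 CPM in control cells (log2 fold change 3.71, SE 0.17, adjusted p = 0.000172). Myc, a transcription factor of growth, had a log2 fold change of 0.66 (adjusted p = 0.0153) and Pprc1, a relative of Ppargc1b, one of 0.61 (adjusted p = 0.0133). None of 14 translation factors, 22 assembly genes, 7 transcription genes, 6 subunits listed under other symbols and 77 cytosolic ribosomal protein genes was called. Marker levels also moved: 3 of 8 macrophage markers fell with IL-4 and 2 of 3 tested dendritic cell markers rose, the 6 dendritic markers summing to 7.16 and 6.41 CPM with IL-4, against 0.936 and 1.01 CPM in control cells. Their part in the member values was not tested.

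With LPS the members moved in both directions. Against control cells 16 members rose and 7 fell, 30.7% of members against 52.1% of all genes called, with 21.3% against 22.8% higher and 9.33% against 29.3% lower. The median was 0.04 over members and -0.10 over all genes on the log2 scale. In the large subunit 13 of 48 rose and 3 fell (median 0.13), and in the small subunit 3 of 26 rose and 4 fell (median -0.08). This balance follows the scaling. With RLE size factors 19 members rose and 3 fell at a median of 0.14, where 51.2% of all genes were called. With library totals alone 4 rose and 44 fell at a median of -0.41. There 64.1% of all genes were called and their median was -0.55. Under library totals 9 of the 16 rises kept their direction, 4 of them called, and all 7 falls remained called. The groups did not overlap for 53 members, 70.7% against 74.5% of all genes. Members and all genes both lost calls when an LPS library was left out. The member median was then -0.020 without LPS replicate 1 and 0.10 without LPS replicate 2.

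Mrpl52, a large subunit protein without a bacterial homolog (chr14:54426909-54429756, plus strand), had 82.0 and 69.8 CPM with LPS and 13.1 and 13.1 CPM with IL-4, against 16.4 and 14.0 CPM in control cells. Both LPS libraries were far above the other 4, at 4.99 times the control mean. The log2 fold change was 2.32 (SE 0.13, adjusted p = 8.27e-05), and 1.86 with library totals (adjusted p = 0.000102). Mmp14, a membrane-bound matrix metalloproteinase gene that starts 1856 bases from the Mrpl52 end on the same strand, had 1364 and 1169 CPM with LPS, against 31.6 and 22.8 CPM in control cells (log2 fold change 5.54, adjusted p = 2.97e-05). Whether reads from one gene were counted for the other was not tested.

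Mrpl45, a large subunit protein without a bacterial homolog that faces the inner membrane (chr11:97315716-97329920, plus strand), had 94.8 and 90.8 CPM with LPS, against 39.6 and 37.5 CPM in control cells. It was 2.41 times the control mean (log2 fold change 1.27, SE 0.10, adjusted p = 0.000188) and remained called with library totals, at 0.81. Its nearest gene, Gpr179, 2189 bases away on the other strand, was not called (-1.31, adjusted p = 0.190). Mrpl54, also of the large subunit, had 41.6 and 35.1 CPM with LPS, against 24.3 and 18.8 CPM in control cells (0.83, SE 0.16, adjusted p = 0.00661). Mrps18c, a small subunit paralog of bacterial S18, had 29.7 and 29.0 CPM with LPS, against 15.3 and 17.7 CPM in control cells (0.83, SE 0.12, adjusted p = 0.00201). All 3 genes were higher in both LPS libraries than in any other stimulation library.

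Mrpl30 had 40.6 and 35.3 CPM with LPS, against 22.3 and 20.7 CPM in control cells (log2 fold change 0.82, SE 0.11, adjusted p = 0.00160). Its neighbour Mitd1, which starts 66 bases away in the opposite direction inside the window printed above, had 61.2 and 63.9 CPM with LPS, against 12.6 and 13.7 CPM in control cells (log2 fold change 2.25). Mrpl20 had 60.0 and 50.9 CPM with LPS, against 34.0 and 32.2 CPM in control cells (0.75, SE 0.11, adjusted p = 0.00267). Of these 4 smaller rises, Mrps18c (0.38) and Mrpl30 (0.36) were still called with library totals, and Mrpl54 (0.38, adjusted p = 0.0825) and Mrpl20 (0.29, adjusted p = 0.0562) were not. The other 10 members that rose had log2 fold changes between 0.32 (Mrpl32) and 0.61 (Mrpl39), and 7 of them changed sign without TMM scaling, none of these being called there.

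The largest fall was in Mrps6, a small subunit protein with a bacterial homolog (chr16:92058270-92112227, plus strand). Mrps6 had 6.54 and 5.83 CPM with LPS and 17.0 and 18.5 CPM with IL-4, against 15.0 and 16.2 CPM in control cells. The LPS libraries were below the other 4 (log2 fold change -1.34, SE 0.12, adjusted p = 0.000347). The Mrps6 locus shares 305 exonic bases on the same strand with other genes, among them Slc5a3, a myo-inositol transporter gene. Slc5a3 had 3.69 and 6.04 CPM with LPS, against 13.7 and 56.6 CPM in control cells (log2 fold change -2.85, adjusted p = 0.0334), and its part in the Mrps6 counts was not tested.

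Mrpl42, of the large subunit, had 7.20 and 9.05 CPM with LPS, against 13.9 and 17.1 CPM in control cells (log2 fold change -0.93, SE 0.17, adjusted p = 0.00499). Mrpl41, a large subunit protein without a bacterial homolog (chr2:24974117-24975098, minus strand), had 6.99 and 6.74 CPM with LPS, against 11.6 and 11.02 CPM in control cells (-0.72, SE 0.11, adjusted p = 0.00241). Both fell in both LPS libraries, below each control and each IL-4 library. Mrps35 fell by 0.47, Mrpl2 by 0.43 and Mrps26 by 0.40 (log2; adjusted p = 0.0181, 0.0417 and 0.0463). All 3 lost the call without control replicate 1, LPS replicate 1 or LPS replicate 2, and without control replicate 1 Mrps35 was at -0.31, Mrpl2 at -0.19 and Mrps26 at -0.18. The last was Mrps25, at -0.35 (adjusted p = 0.0439), with Nr2c2 on the opposite strand at -1.09 (adjusted p = 0.00301). Under RLE size factors Mrps6, Mrpl42 and Mrpl41 stayed called and the other 4 kept their direction only. Of the remaining named members, Mrps36 (-0.49, adjusted p = 0.115), Mrps18a (0.35, adjusted p = 0.0573), Mrps18b (0.27, adjusted p = 0.0917) and Mrpl12 (0.12, adjusted p = 0.393) were not called, and Mrpl12 turned to -0.33 with library totals.

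**Figure D4:**
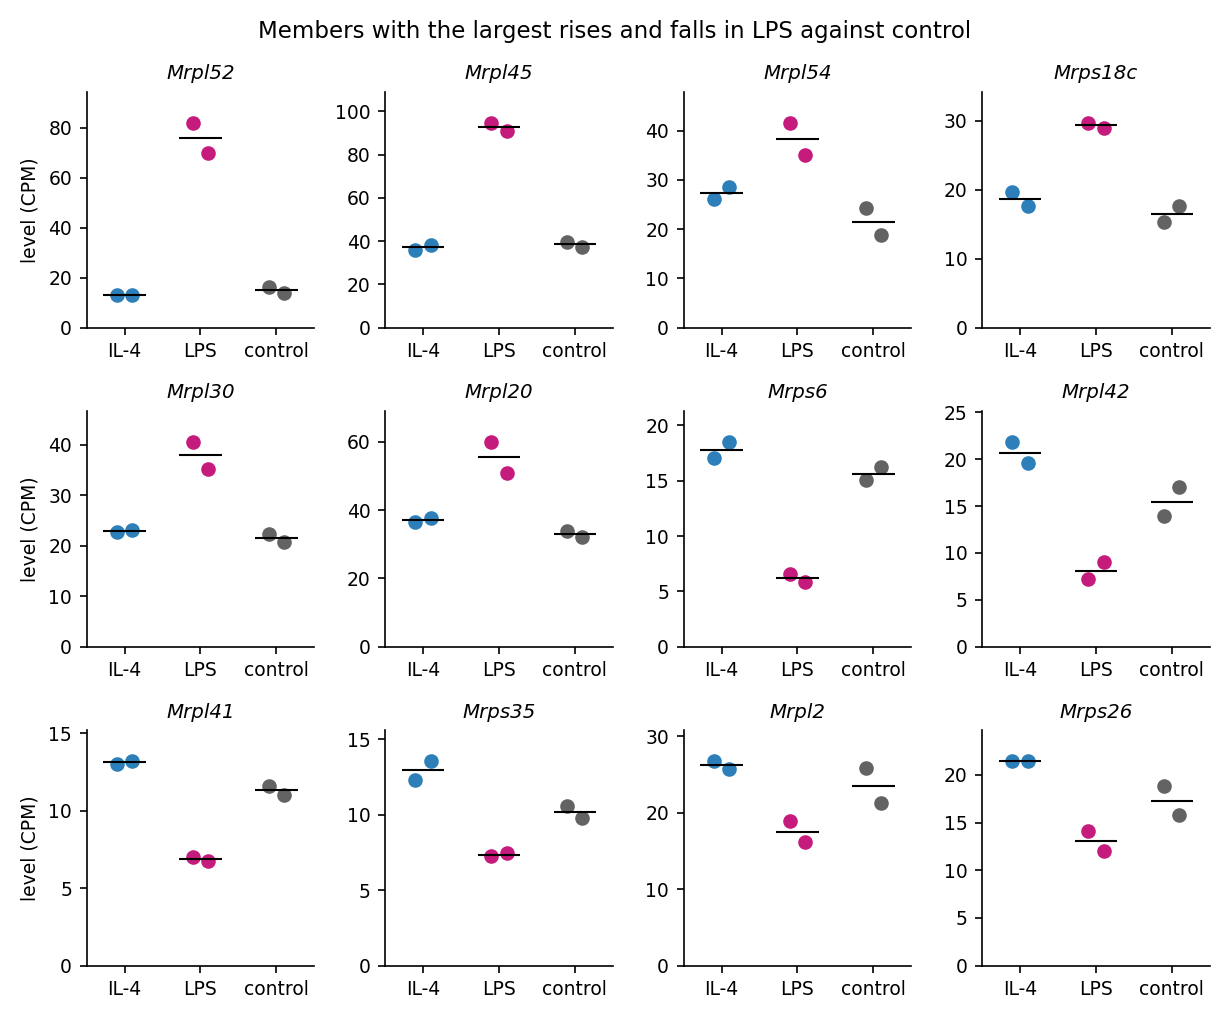
Level (CPM, each axis from 0) of the 6 members with the largest rises and the 6 with the largest falls in LPS against control, in the 2 libraries of each stimulation group, with lines at the means. Mrpl52 and Mrpl45 stand highest with LPS, and Mrps6 and Mrpl42 fall below both other groups.

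The large-subunit genes summed to 2.90 and 2.83 times the small-subunit genes in LPS libraries and 2.23 and 2.20 times in IL-4 libraries, against 2.34 and 2.32 times in control libraries. This ratio does not depend on scaling between libraries. Without Mrpl52 and Mrpl45 it was 2.50 and 2.45 with LPS, against 2.21 and 2.20 in control cells, so these 2 genes carried part of the difference and the LPS libraries were still above the others. Libraries of the tolerance table ran from 2.33 to 2.49.

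Several members lay next to genes that moved with them under LPS. Of the 16 members that rose, 13 had a protein-coding neighbour within 5 kb, and that neighbour rose for 7, fell for 1 and was not called for 5. Of the 7 that fell, 4 had a tested neighbour within 5 kb and it fell for all 4: Cul7 beside Mrpl2, Pnpla7 beside Mrpl41, Nr2c2 beside Mrps25 and Slc5a3 beside Mrps6. Among 36 uncalled members with a tested neighbour, it rose for 9 and fell for 12. Of all genes 22.8% were called higher and 29.3% lower. Exons of Mrps25 overlap those of Nr2c2, and exons of Mrps6 overlap those of Slc5a3, as given above. Pnpla7, 935 bases from Mrpl41 on the other strand, had a log2 fold change of -2.67 (adjusted p = 4.07e-05). Apba3, 26 bases from Mrpl54, had one of 1.11 (adjusted p = 0.00146), and Eme1, whose exons overlap those of Mrpl27 by 75 bases, one of 2.69 (adjusted p = 0.000396). Any link between a member and its neighbour was not tested.

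**Figure D5:**
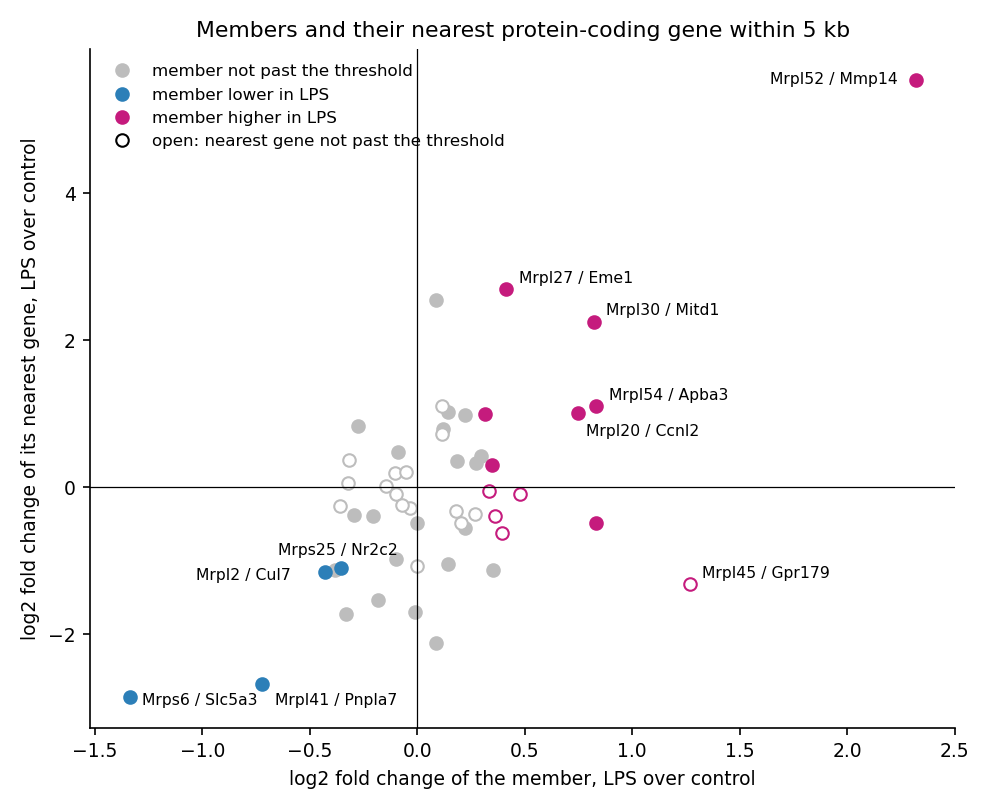
Log2 fold change (LPS over control) of each member (x axis) against that of its nearest protein-coding gene within 5 kb (y axis), coloured by the member's call; open symbols are neighbours past no threshold. Mrpl52 and Mmp14 stand at the top right, and Mrps6 with Slc5a3 and Mrpl41 with Pnpla7 at the bottom left.

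The genes that build or use the mitochondrial ribosome moved in both directions with LPS. Of 22 assembly and rRNA modification genes 10 fell and 1 rose, 50% against 52.1% of all genes called (22.8% higher and 29.3% lower). Their median log2 fold change was -0.38, against -0.10 for all genes. Mtg1, a GTPase of large subunit assembly, fell by 1.11 (adjusted p = 0.000817), Rbfa, a small subunit maturation factor, by 1.07 (adjusted p = 0.000906), and Mrm1, an rRNA methyltransferase, by 1.03 (adjusted p = 0.000935). Ngrn, needed for the large subunit rRNA, fell by 0.69 (adjusted p = 0.00255). Malsu1, a large subunit assembly factor, was the one that rose (0.54, adjusted p = 0.0310), and is named here after its values were seen. Of 14 translation factors and helpers 2 rose, Slirp (0.86) and the elongation factor Gfm1 (0.34), and 3 fell, Mtrf1 (-0.76), Mrrf (-0.56) and Oxa1l (-0.44). Of 7 transcription genes 2 fell, Polrmt, the mitochondrial RNA polymerase, by 0.37 and Mterf1b by 1.12. The shares called were 35.7% of translation factors and 28.6% of transcription genes, below the 52.1% of all genes.

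Regulators of biogenesis rose for 5 of 8 and fell for 1, 75% against 52.1% of all genes called. Esrra, a nuclear receptor of energy metabolism, had a log2 fold change of 1.14 (adjusted p = 0.00101), Nrf1 one of 0.70 (adjusted p = 0.00216), Pprc1 one of 0.66 (adjusted p = 0.00348) and Gabpb1, a partner in NRF-2, one of 0.53 (adjusted p = 0.00649). Yy1 rose by 0.35 and Myc fell by 0.80. Fold changes of the lists in this paragraph and the one above are under TMM scaling and were not compared with other scalings. With library totals the median of all genes with LPS was -0.55, against -0.10 with TMM. Of 6 subunits under other symbols 1 rose, Dap3 of the small subunit (0.31, adjusted p = 0.0364), and of 77 cytosolic ribosomal protein genes 2 rose and 1 fell. The shares called were 16.7 and 3.90% in that order. Neutrophil markers summed to 17.9 and 13.1 CPM with LPS, against 3.22 and 2.84 CPM in control cells, with Ly6g at 0 in all 6 libraries. Dendritic cell markers summed to 5.32 and 4.82 CPM with LPS, against 0.936 and 1.01 CPM in control cells. Of the 3 tested only 1 was called, as higher. Their log2 fold changes ran from -1.39 to 3.77, with a median of -0.001. Of 8 macrophage markers 4 rose and 1 fell (62.5% called), and of 10 proliferation markers 6 fell (60% called). Their part in the member values was not tested.

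IL-4 and LPS were also set against each other directly. With IL-4, 14 members were higher and 10 lower than with LPS, 32% of members against 53.1% of all genes called, with 18.7% against 29.7% higher and 13.3% against 23.4% lower. The groups did not overlap for 57 members, 76% against 80.3% of all genes. The median was 0.05 over members and 0.10 over all genes. Of the large subunit 5 were higher and 9 lower with IL-4, and of the small subunit 8 were higher and 1 lower. With RLE size factors the split was 11 higher and 14 lower, where 51.5% of all genes were called, and with library totals 52 and 3. Under library totals 66.0% of all genes were called and their median was 0.58, against 0.53 for the members. All 14 higher members kept their direction under both, 11 of them called under RLE and 14 with totals. Of the 10 lower members all stayed called under RLE, but with totals 3 stayed called (Mrpl52, Mrpl45 and Mrpl39), 4 kept their direction without a call, and 3 (Mrpl14, Mrpl27 and Mrps18a) changed sign without a call.

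The members higher with IL-4 were led by Mrps6 (log2 fold change 1.52, SE 0.12, adjusted p = 0.000190), Mrpl42 (1.35, SE 0.17, adjusted p = 0.00109) and Mrps28 (1.23, SE 0.12, adjusted p = 0.000382). Mrpl41 (0.93), Mrps25 (0.90) and Mrps35 (0.82) came next. Mrps6 was at 17.0 and 18.5 CPM with IL-4, against 6.54 and 5.83 CPM with LPS, and Mrpl42 at 21.9 and 19.6 CPM with IL-4, against 7.20 and 9.05 CPM with LPS. For each of the 6 both IL-4 libraries were above both LPS libraries. Mrps36 was higher with IL-4, at 4.18 and 3.54 CPM, against 2.58 and 1.89 CPM with LPS (0.79, SE 0.22, adjusted p = 0.0264), a call lost without IL-4 replicate 1, IL-4 replicate 2 or LPS replicate 2.

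Lower with IL-4 were Mrpl52 (-2.53, SE 0.14, adjusted p = 4.78e-05), Mrpl45 (-1.32, SE 0.10, adjusted p = 0.000140) and Mrpl39 (-0.84, SE 0.11, adjusted p = 0.00114), all of the large subunit and without bacterial homologs. Mrpl39 had 21.1 and 20.5 CPM with IL-4, against 39.9 and 34.9 CPM with LPS. Mrpl30 (-0.73), Mrps18c (-0.66) and Mrpl20 (-0.58) followed, and with library totals these were -0.25, -0.18 and -0.10 and not called. Mrpl20 also lost the call without IL-4 replicate 1. Mrps18a was lower by 0.43 (adjusted p = 0.0291), but turned to 0.05 with library totals and lost the call without IL-4 replicate 1, IL-4 replicate 2 or LPS replicate 1, while Mrps18b (0.12, adjusted p = 0.414) and Mrpl12 (0.31, adjusted p = 0.0550) were not called. This comparison shares its libraries with the ones against control, so these values restate the same LPS and IL-4 libraries.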

How the data were processed

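The authors deposited 2 tables of raw read counts per gene, one for the tolerance and one for the stimulation experiment, which were used as they stood. Libraries were stranded and made from total RNA, per the labels' protocols. STAR, HTSeq and the build mm10 are named in the submitters' processing notes; versions and the strand setting of the counting are not given there or in the labels. No other sample columns were left out. Members and gene lists were chosen with earlier results of these data known.

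The tables were fitted separately, every group in 1 model, with edgeR 4.0.16 under R 4.3.3: filterByExpr (12492 and 12506 of 23052 genes kept), TMM scaling and robust quasi-likelihood tests, with Benjamini-Hochberg adjustment over all genes tested and a threshold of 0.05. SE is the log2 fold change divided by the square root of F. Alternatives used DESeq2 1.42.0, limma-voom (limma 3.58.1), other scalings and filters, left-out libraries and a replicate block. The steps were tested on simulated counts with 200 changed genes, the spread being trended or set gene by gene in that order below. Without a block, 14.9 and 16.4% of 1.5-fold changes were recovered in the tolerance table and 5.97 and 2.99% in the stimulation table. For 2-fold changes these were 55.2 and 67.2%, and 44.8 and 43.3%. On these simulated counts 1.5-fold changes were therefore mostly missed. Members had a lower median within-group SD than all genes, as given above, and recovery among members alone was not tested. Named members were all called ones where there were at most 12, otherwise the 6 largest rises and falls whose mean log2 CPM reached 2, the 3 smallest p where none was called, and Mrps36, Mrpl12 and the Mrps18 genes throughout. Positions and lengths are from GENCODE vM21 (GRCm38).

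The main tests used groups only, and the replicate number entered as a block in an alternative fit. In the tolerance table deviations of same-numbered libraries correlated in all 12 pairs of libraries (r 0.429 to 0.848). Libraries of other numbers ranged from -0.868 to 0.857, so these correlations do not settle whether the numbers mark pairs. The labels do not say what a number marks. In the stimulation table same-numbered libraries ran from r -0.781 to 0.665.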

Additional observations from a re-analysis of the deposited data

Results flagged for a closer look

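Of 36 sets of 4 libraries examined, 4 held a library far from the others, where chance gives about 1 in 20. Mrpl12 was at 20.8 CPM in glutamine replicate 3, against 16.4 to 17.0 CPM in the other glutamine libraries. Mrps34 was at 3.59 CPM in replicate 2 without glutamine, against 2.38 to 2.58 CPM in the others of its group. Mrps36 was at 3.89 CPM in the same library, against 2.73 to 2.84 CPM in the others. The sum of all members was 1655 CPM in replicate 3 without glutamine, against 1499 to 1514 CPM in the others.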

How the results depend on the processing

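Of 964 values of named members under alternative settings, 851 kept direction and side of the threshold, 63 lost the call, 21 gained one, 27 changed sign while called in neither fit, and 2 changed sign while called in one of the fits: with library totals Mrpl12 was at -0.33 in LPS against control and Mrps18a at 0.049 in IL-4 against LPS. The cause was not tested.

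For no glutamine against glutamine no member was called with the 2 groups alone, RLE size factors, limma-voom, no filter or replicates 3 and 4 alone. Of all genes 1.98, 4.72, 3.73, 2.92 and 13.2% were called there, in that order. When any library was left out no member was called, against 1.81 to 3.71% of all genes. There were 3 with the replicate block or with replicates 1 and 2 against 3 and 4 as a factor (21.7 and 24.7% of all genes). Replicates 1 and 2 alone gave 5 (28.5%). For AKG against no glutamine 2 members were called with the block, the factor or replicates 1 and 2 alone (15.3, 18.5 and 23.5% of all genes). For AKG against glutamine 1 was called with the factor (9.07%) and 2 with replicates 1 and 2 alone (11.6%). With a library left out, the medians ran from -0.00 to 0.07, from -0.06 to 0.00 and from -0.03 to 0.03 (log2).

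For IL-4 against control 3 members were called with the 2 groups alone, 14 with a crossed replicate block and 1 to 8 with a library left out. For LPS against control there were 14 with the 2 groups alone, 48 with library totals and 10 to 26 with a library left out; for IL-4 against LPS 55 with library totals and 13 to 17 with a library left out. Leaving one out leaves a group with 1 library, assumed to vary like the other groups. Of all genes, 14.1% were called with the 2 groups alone for IL-4 against control, and 45.9% for LPS against control. With library totals 64.1% of all genes were called for LPS against control and 66.0% for IL-4 against LPS. In IL-4 against LPS all genes lost calls too, whichever library was left out. The replicate block, for which the stimulation libraries share only a number, gave 4, 19 and 22 calls (15.7, 48.3 and 48.8% of all genes). The crossed block gave 14, 33 and 34 (31.7, 63.7 and 64.2%). It swapped the IL-4 replicate numbers and was not planned. Same-numbered IL-4 and control libraries had r of -0.781, so the swap follows a pattern in these data. Its higher counts are not separate evidence.

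The member median for IL-4 against LPS was -0.038 with DESeq2 and RLE, 0.53 with library totals, and 0.036 to 0.11 with a library left out. For LPS against control it was 0.14 with DESeq2 and RLE, -0.41 with library totals, and -0.020 to 0.18 with a library left out. For IL-4 against control it was 0.12 with the 2 groups alone and 0.039 to 0.22 with a library left out. The stimulation table has 3 residual degrees of freedom.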
